A study of Homo sapiens with 38 samples.

Results

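The entries described here are the small nuclear RNA (snRNA) features of a deposited table of small RNA read counts, chosen as every feature typed snRNA whose counts summed to 200 or more over all 38 libraries. Of 90127 features, 2106 were typed snRNA and 50 of these met the rule, 38 with Ensembl and 12 with RNAcentral identifiers. They held 1475637 of 344559041 counts, or 0.428% of the table and 99.4% of its snRNA counts. The lowest entry inside the rule was RNU2-15P with 204 counts and the highest outside it was RNU2-44P with 199.

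KG1a and HL60, both wild-type human lines of acute myeloid leukaemia, gave small RNA libraries of the cells, of large extracellular vesicles (lEV) and of small ones (sEV), as total RNA and after rPAL. In rPAL the sialic acids of glycans are oxidised with periodate and joined to biotin, so that sialylated glycoRNA can be pulled down and compared with the total RNA it came from. The 12 groups are the 6 sources (cells, lEV and sEV of either line), each as total and as rPAL RNA, with n = 4 libraries in both KG1a cell groups and n = 3 in the other groups. Cells for cell RNA grew with 10% serum and cells for vesicles had none for 2 days, so vesicles and cells also differ in culture. No replicate was stated to be a separate culture, and p-values then measure only the spread between these libraries, which may be technical. Depth ran from 5498168 to 14892937 counts in the total RNA libraries and from 2380745 to 15532758 after rPAL.

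The spliceosome removes introns from pre-mRNA and is built from snRNA and protein. In the major form, U1 binds the 5′ splice site, U2 the branch site, and U4, U5 and U6 arrive together as one particle, in which U4 is paired to U6 until the complex is activated and the U5 loop holds the exon ends. U11, U12, U4atac and U6atac take the places of U1, U2, U4 and U6 in the minor form, which removes a rare class of introns and shares U5. Most snRNA are bound by a ring of Sm proteins at a short uridine-rich site, and all act in the nucleus. Small Cajal body RNA (scaRNA) guides the chemical modification of snRNA.

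By symbol, 5 entries belonged to U4 (177942 counts), 4 to U2 (125979), 5 to U5 (88975), 1 to U11 (10155), 6 to U4atac (7277), 10 to U1 (3139), 1 to U6 (2479) and 2 to U6atac (651). The U1 entries include 3 that GENCODE names only by the Rfam family. The other 16 entries, 12 from RNAcentral and 4 from Ensembl, had no name in the references used here, and they held 71.8% of the counts. A single RNAcentral entry, URS000233747B, held 806820 counts or 54.7%. Of the 31 entries with a symbol, 17 are named as pseudogene copies and 14 as genes. Counts did not always lie on the gene usually taken as the source of a snRNA: RNU2-1 had 2 counts and RNU11, RNU12, RNU5A-1 and RNU5E-1 had 0, while the U2 copy RNU2-36P had 124608 and the U11 copy RNU11-6P 10155. RNU6-1 had 12 counts and RNU6-9, whose sequence is identical, had 2479. How reads with several matches were assigned is not given in the sources used here, so a named entry may hold reads of other copies of its family.

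RNU4-2 and RNU5B-1 are the entries to which most comparisons below return, and RNU4-2 is printed with its U4 relatives because reads short enough for these libraries could come from more than one copy. Sequences are from the GENCODE 29 annotation on GRCh38, 5′ to 3′ on the transcript's strand. RNU4-2 lies at chr12:120291763-120291903 (minus strand), RNU4-1 at chr12:120293097-120293237 (minus), RNU4-67P at chr12:25404288-25404428 (minus) and RNU4-59P at chr1:92700819-92700934 (minus), each a gene annotated as snRNA in 1 exon. Capitals in RNU4-2 mark a match to ATTTTTG, a uridine-rich stretch of the kind Sm proteins bind. Capitals in the other 3 mark the longest stretch shared with RNU4-2.
RNU4-2: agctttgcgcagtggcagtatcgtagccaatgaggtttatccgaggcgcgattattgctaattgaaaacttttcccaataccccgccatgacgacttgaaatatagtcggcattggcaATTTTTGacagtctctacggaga
RNU4-1: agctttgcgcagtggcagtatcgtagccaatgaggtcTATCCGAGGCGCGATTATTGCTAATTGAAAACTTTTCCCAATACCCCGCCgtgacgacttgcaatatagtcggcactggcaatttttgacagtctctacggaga
RNU4-67P: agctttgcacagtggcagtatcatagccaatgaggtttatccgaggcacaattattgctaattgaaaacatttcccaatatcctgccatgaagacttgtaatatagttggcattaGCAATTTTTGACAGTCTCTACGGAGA
RNU4-59P: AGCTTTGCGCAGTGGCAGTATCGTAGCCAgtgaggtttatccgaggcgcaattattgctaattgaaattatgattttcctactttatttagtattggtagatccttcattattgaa
RNU4-1 was 97.2% identical to RNU4-2 and shared a run of 50 bases, RNU4-67P was 92.2% identical with the last 26 bases in common, and RNU4-59P was 69.9% identical with the first 29 bases in common. The motif ATTTTTG, searched on the transcript's own strand, was present in 14 of the 33 entries with a sequence and in 116 of 1900 GENCODE snRNA transcripts (6.11%).

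RNU2-36P, at chr9:86422938-86423128 (minus), and RNU4ATAC10P are printed because they rise in vesicles below. Capitals mark the longest stretch that RNU2-36P shares with RNU2-1, and in RNU4ATAC10P the last 21 bases, which it shares with RNU4ATAC at chr2:121530881-121531007 (plus).
RNU2-36P: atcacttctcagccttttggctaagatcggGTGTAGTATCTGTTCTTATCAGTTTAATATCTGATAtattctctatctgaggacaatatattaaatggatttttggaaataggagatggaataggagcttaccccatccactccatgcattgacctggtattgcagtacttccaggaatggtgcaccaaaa
RNU4ATAC10P: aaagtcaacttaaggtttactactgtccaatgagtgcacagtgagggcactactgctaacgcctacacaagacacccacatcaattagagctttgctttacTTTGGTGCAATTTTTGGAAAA
RNU2-36P was 88.0% identical to RNU2-1. All 6 U4atac entries end in the same 20 bases, so they may share reads and their counts may not be independent of each other. Of the 8 U1 entries with a sequence, 6 were identical.

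Levels are given as CPM (counts scaled to a fixed library total), in the order of the replicate numbers. The lines were checked against mRNA markers, which were low in these small RNA libraries: a list of 6 primitive myeloid genes summed to 5.54 to 10.3 CPM in KG1a cells and 1.85 to 2.80 in HL60 cells, with 1 gene at 0 in KG1a, and a list of 6 promyelocytic genes to 11.8 to 15.2 and 21.8 to 24.3, with 3 at 0 in KG1a and 1 in HL60. Of the first list, FLT3 and KIT went the other way, with means of 0 and 0.0725 CPM in KG1a and 0.302 and 0.186 in HL60. HMGA2 and CD34 gave means of 3.35 and 2.95 CPM in KG1a. MYC alone gave a mean of 12.9 CPM of the second list in KG1a and 20.1 in HL60. Summed T cell, erythroid and plasma genes stayed at or under 1.09, 0.756 and 1.93 CPM in every cell total RNA library. The KG1a sEV total RNA library 3 stood apart, with 3.83% of its counts on the snRNA entries against 0.350% and 0.694% in libraries 1 and 2. Among the KG1a cell rPAL libraries the share was 0.238% and 0.244% in libraries 2 and 3 and 0.138% and 0.149% in libraries 1 and 4, and the counts of calls that use them are also given without libraries 2 and 3.

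As a share of library counts, the 38 Ensembl entries were lower in rPAL than in total RNA in every source. In HL60 cells they took 0.250% ± 0.098 of total RNA and 0.00697% ± 0.00355 of rPAL counts (SD, n = 3), and in KG1a cells 0.113% ± 0.039 and 0.0270% ± 0.0136 (n = 4). The mean share of the 12 RNAcentral entries was lower in rPAL in 4 of the 6 sources: 0.408% ± 0.125 in total and 0.187% ± 0.030 in rPAL RNA for HL60 cells, 0.131% ± 0.115 and 0.0617% ± 0.0281 in KG1a lEV, 1.06% ± 1.28 and 0.160% ± 0.055 in KG1a sEV, and 0.901% ± 0.407 and 0.209% ± 0.076 in HL60 sEV. Of these, KG1a lEV and KG1a sEV had libraries that overlapped between the kinds of RNA. It was higher in rPAL in KG1a cells, at 0.127% ± 0.021 and 0.165% ± 0.043, and in HL60 lEV, at 0.124% ± 0.090 and 0.317% ± 0.302, with libraries that overlapped in both. In total RNA the Ensembl and the RNAcentral entries both had their highest mean in KG1a sEV, the Ensembl entries at 0.570% ± 0.645, and this order rests on library 3. KG1a sEV libraries 1 and 2 had 0.151% and 0.246% on the Ensembl entries, under the HL60 cell mean, and 0.199% and 0.448% on the RNAcentral entries, under the HL60 sEV mean. These shares are descriptions with no test, because the entries were chosen on their counts.

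**Figure D1:**
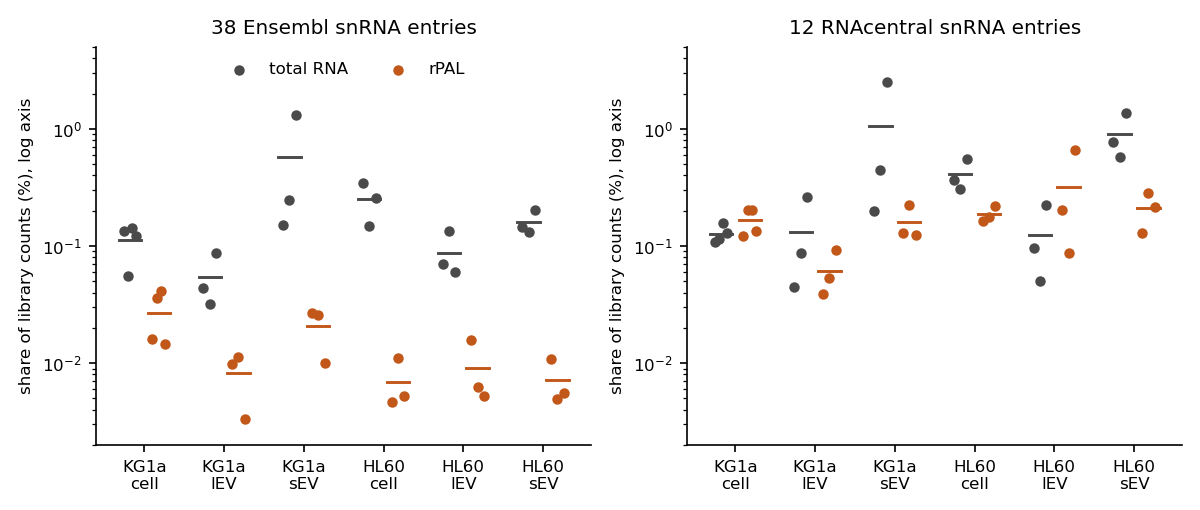
Share of each library's counts (percent, log axis) on the 38 Ensembl entries (left) and the 12 RNAcentral entries (right), for the 6 sources. Points are libraries, bars are group means, grey is total RNA and orange is rPAL RNA. The Ensembl entries are lower in rPAL in every source (0.250% against 0.00697% in HL60 cells), while the RNAcentral entries overlap between the kinds of RNA in KG1a cells, lEV and sEV and in HL60 lEV.

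The first question was which snRNA the pull-down holds relative to its own total RNA. The tested U4, U5 and U2 entries fell in the rPAL RNA of HL60 cells, except the U5 copy RNU5E-9P, and a smaller number did in KG1a cells. RNU5E-9P had a mean of 6.23 CPM in HL60 cell total RNA and 7.93 in rPAL (log2 fold change 0.05, SE 0.51, adjusted p = 0.955). RNU4-2 fell in both lines. Across the 31 entries with enough counts to be tested in HL60 cells, 21 were lower, against 18% of all features tested, and 1 was higher, against 20.6%. The median log2 fold change was -4.10 for these entries (-3.80 with the 3 that had a group at 0 set to a floor of 3 counts) and 0.04 for all features. In KG1a cells 6 of 29 were lower, against 9.86% of all features, and 1 was higher, against 8.89%, with medians of -1.16 and -0.04. An entry with few counts in both groups was not tested, so the tested entries include some that qualified only through the group where they were high. Leaving out 1 library gave 19 to 31 calls in HL60 cells. In KG1a cells it gave 3 without total replicate 3, 4 without total replicate 2 or 4, 13 without rPAL replicate 3 and 12 without rPAL replicate 4, and leaving out rPAL libraries 2 and 3 together gave 16 lower and 2 higher.

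RNU4-2, one of the genes that encode U4, had 683, 148, 592 and 524 CPM in KG1a cell total RNA and 42.4, 81.3, 57.0 and 41.1 in rPAL. The lowest total library lay above the highest rPAL library (log2 fold change -3.41, SE 0.57, adjusted p = 0.00192). In HL60 cells it had 814, 261 and 763 CPM in total RNA and 3.37, 34.9 and 17.3 in rPAL, again with no overlap (log2 fold change -5.30, SE 0.79, adjusted p = 0.000821). Both calls held in every fit with libraries left out.

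The other U4 entries were lower as well. RNU4-1 fell from 282, 126 and 301 to 1.69, 17.7 and 7.08 CPM in HL60 cells (log2 fold change -5.00, SE 0.75, adjusted p = 0.000861) and from 80.0, 54.4, 127 and 121 to 29.1, 39.5, 41.9 and 24.5 in KG1a cells (log2 fold change -1.74, SE 0.46, adjusted p = 0.0178), the second a call that was lost without total replicate 3 or 4 (adjusted p = 0.0686 and 0.0572). The copy RNU4-67P fell by 4.32 on the log2 scale in HL60 cells (SE 0.81, adjusted p = 0.00303) and by 1.60 in KG1a cells (SE 0.49, adjusted p = 0.037), the KG1a call held in 6 of 14 alternative fits.

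RNU5B-1 encodes a U5 snRNA, and it differed in the size of its fall between the lines. In HL60 cells it had 1653, 714 and 729.9 CPM in total RNA and 0.506, 5.70 and 0.786 in rPAL (log2 fold change -8.99, SE 0.89, adjusted p = 7.26e-05). In KG1a cells it had 426, 166, 402 and 322 in total RNA and 11.5, 102, 145 and 31.8 in rPAL (log2 fold change -2.59, SE 0.67, adjusted p = 0.0168). The rPAL libraries 2 and 3, which stand apart, were the high ones, and the groups did not overlap. RNU5D-1, another U5 gene, had 2.68, 3.45, 3.96 and 2.35 CPM in KG1a total RNA and no count in the 4 rPAL libraries (at least 51.6-fold lower in CPM, adjusted p = 0.00204). It was also at 0 in the 3 HL60 rPAL libraries (at least 13.8-fold lower, adjusted p = 0.00389). Where a group had no count, the fold was taken against a floor set at 3 counts over that group.

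RNU5F-1 fell from 126, 50.4 and 76.2 CPM to 0.506, 2.18 and 1.73 in HL60 cells (log2 fold change -6.04, SE 0.61, adjusted p = 8.31e-05) and overlapped between kinds of RNA in KG1a cells, at 6.16, 2.38, 4.62 and 2.01 and 0.0761, 7.16, 5.38 and 1.80 CPM. The copy RNU5E-4P fell from 112, 43.8 and 105 to 16.02, 18.6 and 4.72 CPM in HL60 cells (log2 fold change -3.00, SE 0.55, adjusted p = 0.00265). Its KG1a levels of 4.28, 3.21, 5.84 and 1.85 and 0.456, 5.42, 4.79 and 4.44 overlapped.

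The U2 copy RNU2-36P fell from 120.4, 115 and 278 to 9.44, 6.32 and 6.45 CPM in HL60 cells (log2 fold change -4.79, SE 0.49, adjusted p = 8.37e-05). In KG1a cells its 22.4, 52.3, 78.6 and 27.5 CPM in total RNA overlapped 11.3, 46.3, 27.1 and 9.85 in rPAL (log2 fold change -1.29, SE 0.55, adjusted p = 0.146). RNU6-9, a U6 gene, fell in HL60 cells from 7.35, 3.22 and 4.82 to 0.169, 0.622 and 1.26 CPM (log2 fold change -3.10, SE 0.72, adjusted p = 0.00822). In KG1a cells it went from 14.4, 29.1, 16.5 and 16.3 to 2.89, 7.44, 13.2 and 0.966 (log2 fold change -2.06, SE 0.65, adjusted p = 0.0456), a call that held in 3 of 14 alternative fits.

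Of the minor spliceosome, RNU4ATAC had 2.996, 1.54 and 4.12 CPM in HL60 total RNA and no count in rPAL (at least 21.1-fold lower, adjusted p = 0.0025). RNU6ATAC had 8.04, 6.90, 6.502 and 4.62 CPM in KG1a total RNA and 0, 0, 2.15 and 0 in rPAL, with 1 rPAL library above 0 (log2 fold change -4.06, SE 1.34, adjusted p = 0.0561, not called). The 10 U1 entries summed to 1.43 ± 0.56 CPM in KG1a total RNA and 10.2 ± 9.15 in rPAL (SD, n = 4), and to 10.6 ± 3.37 and 1.02 ± 0.14 in HL60 cells (n = 3), so their summed levels lay in opposite order in the lines. The rPAL range in KG1a, 2.32 to 23.4 CPM, lay wholly above the total RNA range of 0.658 to 1.96.

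**Figure D2:**
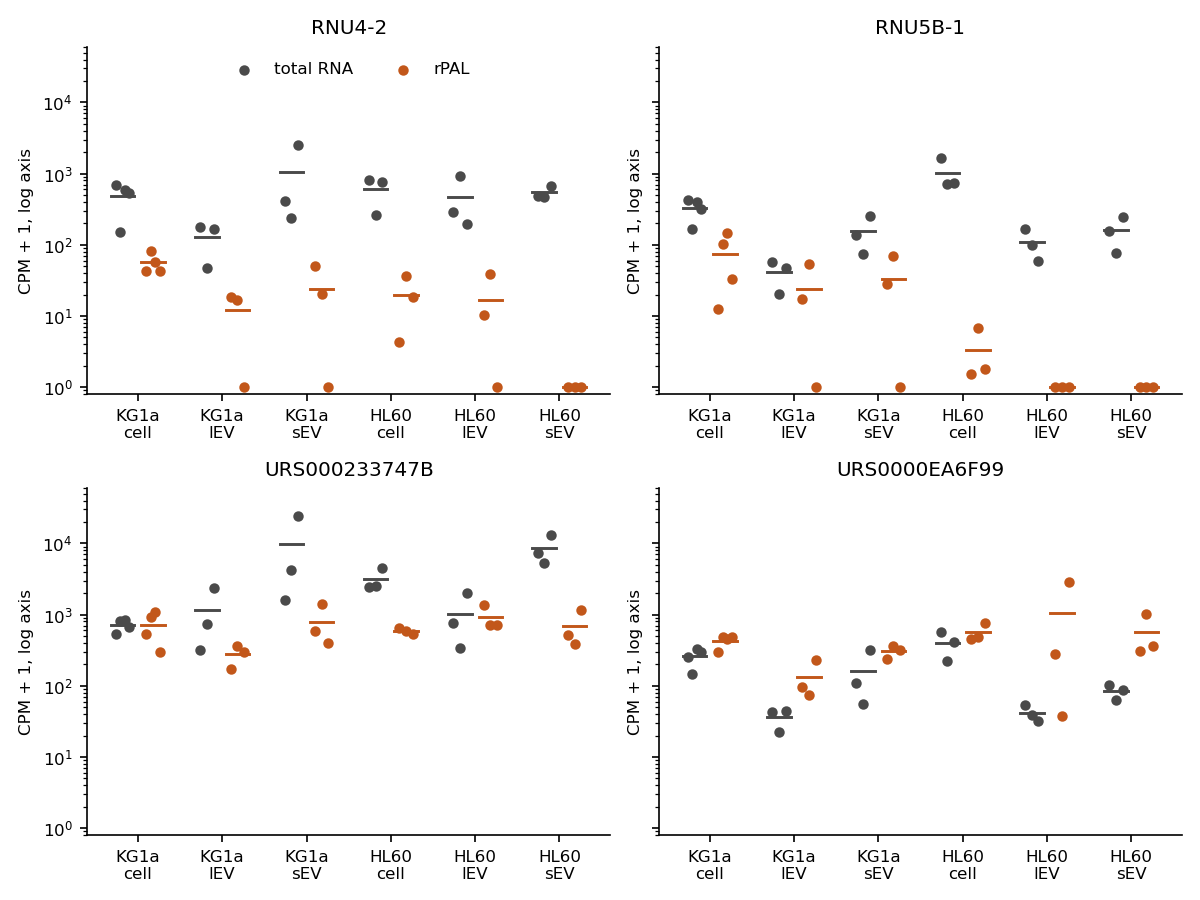
CPM + 1 (log axis) of RNU4-2, RNU5B-1 and the RNAcentral entries URS000233747B and URS0000EA6F99 in every library, by source. Points are libraries, bars are group means, grey is total RNA and orange is rPAL RNA. RNU4-2 and RNU5B-1 reach 0 CPM in the 3 HL60 sEV rPAL libraries, while URS0000EA6F99 stays between 36.8 and 2877 CPM in every rPAL library.

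The RNAcentral entries showed 2 further patterns. URS000233747B, typed only as snRNA, fell from 2423, 2509.5 and 4459.9 to 647, 585 and 533 CPM in HL60 cells (log2 fold change -2.68, SE 0.29, adjusted p = 0.000113) and overlapped in KG1a cells, at 533, 812, 838 and 659.5 and 539, 937, 1082 and 294 CPM. URS0000EA6F99 and URS0000E9FEF9 had nearly the same count in each of the 38 libraries (log2 ratio -0.18 to 0.16), are taken to share reads and are described through the first. In cells it overlapped between kinds of RNA, with 256, 144, 329.7 and 300.2 CPM in KG1a total RNA and 293, 489, 446 and 490.4 in rPAL, and 562, 225 and 417 and 448, 480.2 and 771 in HL60. Another RNAcentral entry was the 1 called higher in both lines, by 1.95 on the log2 scale in KG1a cells (SE 0.60, adjusted p = 0.0398, held in 4 of 14 alternative fits) and by 2.18 in HL60 cells (SE 0.50, adjusted p = 0.00686, 8 of 11). An Ensembl entry without a name, ENSG00000281499, fell from 157, 105 and 141 to 1.69, 0.518 and 1.57 CPM in HL60 cells (log2 fold change -7.01, SE 0.56, adjusted p = 2.11e-05).

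Whether the fall differs between the lines was tested as the difference of the cell rPAL effects, HL60 minus KG1a. Of 44 entries tested 10 were lower, against 1.18% of all features, and 0 were higher, against 0.636%, with a median of -3.15 beside -0.36 for all features. RNU5B-1 differed by -6.56 (SE 1.07, adjusted p = 0.00463), a call kept in 19 of 20 alternative fits. RNU5F-1 differed by -5.69 (SE 1.18, adjusted p = 0.0217) and RNU4-1 by -3.39 (SE 0.82, adjusted p = 0.0405), kept in 11 and 8 of 20. RNU4-2 differed by -2.02 (SE 0.88, adjusted p = 0.245), so that a difference between the lines was not called for it. The count of calls rests on single libraries: it was 1 without HL60 total replicate 1 or 2 or HL60 rPAL replicate 1 or 3, 2 without HL60 total replicate 3, HL60 rPAL replicate 2 or KG1a total replicate 2, 3 or 4, and 17 without KG1a rPAL replicate 4. It was 11 without KG1a rPAL libraries 2 and 3.

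In the vesicles RNU4-2 and RNU4-1 fell in rPAL in 3 of the 4 sources and RNU5B-1 in 2, and several rPAL libraries held no count of them. In HL60 sEV 17 of 29 tested entries were lower, against 16.3% of all features, and 2 were higher, against 2.51%. The 2 higher entries were URS0000EA6F99 and URS0000E9FEF9, which are taken to share reads and so may be a single signal. The median was -7.13, or -3.82 with the 14 entries that had a group at 0 set to the floor, beside -0.12 for all features. In KG1a sEV 11 of 33 were lower, against 6.13%, and 0 higher, against 0.48%, with medians of -2.93 and -0.42. In HL60 lEV 6 of 19 were lower, against 18.9%, and 0 higher, against 12.3%, with medians of -1.65 and 0.08. In KG1a lEV 2 of 17 were lower, against 7.07%, and 0 higher, against 3.16%, with medians of -1.23 and -0.30. The lower share in KG1a lEV is near the background. U4atac entries, which may share reads, are counted singly where tested.

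RNU4-2 had 476, 475 and 674 CPM in HL60 sEV total RNA and no count in the 3 rPAL libraries (at least 1755-fold lower, adjusted p = 0.00352). In KG1a sEV it had 413, 235 and 2548 CPM in total RNA and 49.8, 19.4 and 0 in rPAL (log2 fold change -5.48, SE 1.33, adjusted p = 0.00853). In HL60 lEV it had 287, 924 and 195 and 9.32, 37.2 and 0 (log2 fold change -6.54, SE 1.90, adjusted p = 0.0309). No rPAL library overlapped total RNA in these 3 sources. The HL60 sEV call held in all 6 fits with 1 library left out, but the KG1a sEV and HL60 lEV calls held in 2 of 6 each. In KG1a lEV the levels of 174, 45.5 and 168 and 17.7, 15.7 and 0 CPM did not overlap either, and the test did not call them (log2 fold change -3.41, SE 1.38, adjusted p = 0.121).

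RNU5B-1 was at 0 in every HL60 vesicle rPAL library. Its HL60 total RNA levels were 168, 98.5 and 57.5 CPM in lEV (at least 505-fold lower in rPAL, adjusted p = 0.00441) and 154, 76.0 and 244 in sEV (at least 512-fold lower, adjusted p = 0.00736). Both calls held in all 6 fits with 1 library left out. In KG1a vesicles it was not called: lEV had 56.4, 19.0 and 46.1 CPM in total RNA and 16.5, 52.0 and 0 in rPAL (log2 fold change -0.78, SE 1.33, adjusted p = 0.78), and sEV had 135, 72.9 and 254 and 26.7, 68.1 and 0 (log2 fold change -2.55, SE 1.30, adjusted p = 0.273). The KG1a vesicle rPAL libraries 3 were at 0 and libraries 2 were highest.

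RNU2-36P was lower in rPAL of all 4 vesicle groups by the test, with libraries that overlapped in HL60 lEV. The fall was from 504, 943 and 9063 to 42.0, 74.3 and 31.0 CPM in KG1a sEV (log2 fold change -6.16, SE 1.22, adjusted p = 0.000963) and from 282, 317 and 401 to 26.0, 29.9 and 22.3 in HL60 sEV (log2 fold change -3.72, SE 0.80, adjusted p = 0.0254). It had counts in every vesicle rPAL library, where RNU4-2 and RNU5B-1 had libraries at 0. With 1 library left out its calls held in 3 of 6 fits in KG1a sEV, 4 of 6 in HL60 sEV and 2 of 6 in lEV of either line. RNU4ATAC was at 0 in every vesicle rPAL library, against 46.2, 10.8 and 65.1 CPM in KG1a sEV total RNA (at least 161-fold lower, adjusted p = 0.00459, held in 8 of 11 alternative fits), and the other 5 U4atac entries were at 0 there too.

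URS0000EA6F99 in HL60 sEV and RNU6-9 in KG1a sEV had rPAL levels above those of total RNA. The first had 101, 61.1 and 86.3 CPM in HL60 sEV total RNA and 311, 1028 and 359 in rPAL, with no overlap (log2 fold change 2.88, SE 0.84, adjusted p = 0.0437), but this call held in 2 of 11 alternative fits and in none of the 6 with 1 library left out. In HL60 lEV its rPAL levels of 276, 36.8 and 2877 were highest in library 3 and were not called (adjusted p = 0.11). Its fitted change was above 0 in all 6 sources, and called in 1. RNU6-9 had 1.82, 2.56 and 3.59 CPM in KG1a sEV total RNA and 16.8, 40.1 and 14.9 in rPAL, also without overlap and not called (log2 fold change 2.93, SE 1.59, adjusted p = 0.311). Its rPAL levels in KG1a lEV (19.6, 7.97 and 0 CPM), HL60 lEV (37.7, 0 and 12.7) and HL60 sEV (0, 7.09 and 15.1) each included a library at 0. It was called higher in none of the 4 sources where it was tested. RNU11-6P had 52.8, 910.0 and 1.74 and 83.2, 17.3 and 40.9 CPM in the total and rPAL RNA of KG1a sEV, which overlapped and were not called (log2 fold change -3.03, SE 1.28, adjusted p = 0.159).

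The vesicle counts of calls depend on single libraries. In KG1a sEV 0 entries were called without rPAL replicate 1 or 2 and 7 without total replicate 3 or rPAL replicate 3, and in HL60 sEV 2 to 6 were called without any 1 of the 6 libraries. In HL60 lEV 1 was called without any 1 of the total RNA libraries, and 13, 15 and 10 without rPAL replicates 1, 2 and 3. In KG1a lEV 0 were called without total replicate 1 or 3, 4 without total replicate 2, and 7, 9 and 10 without rPAL replicates 1, 2 and 3. Without TMM scaling, HL60 lEV had 2 higher and 5 lower entries, while the higher share of all called features went from 39.4% to 58.4%.

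**Figure D3:**
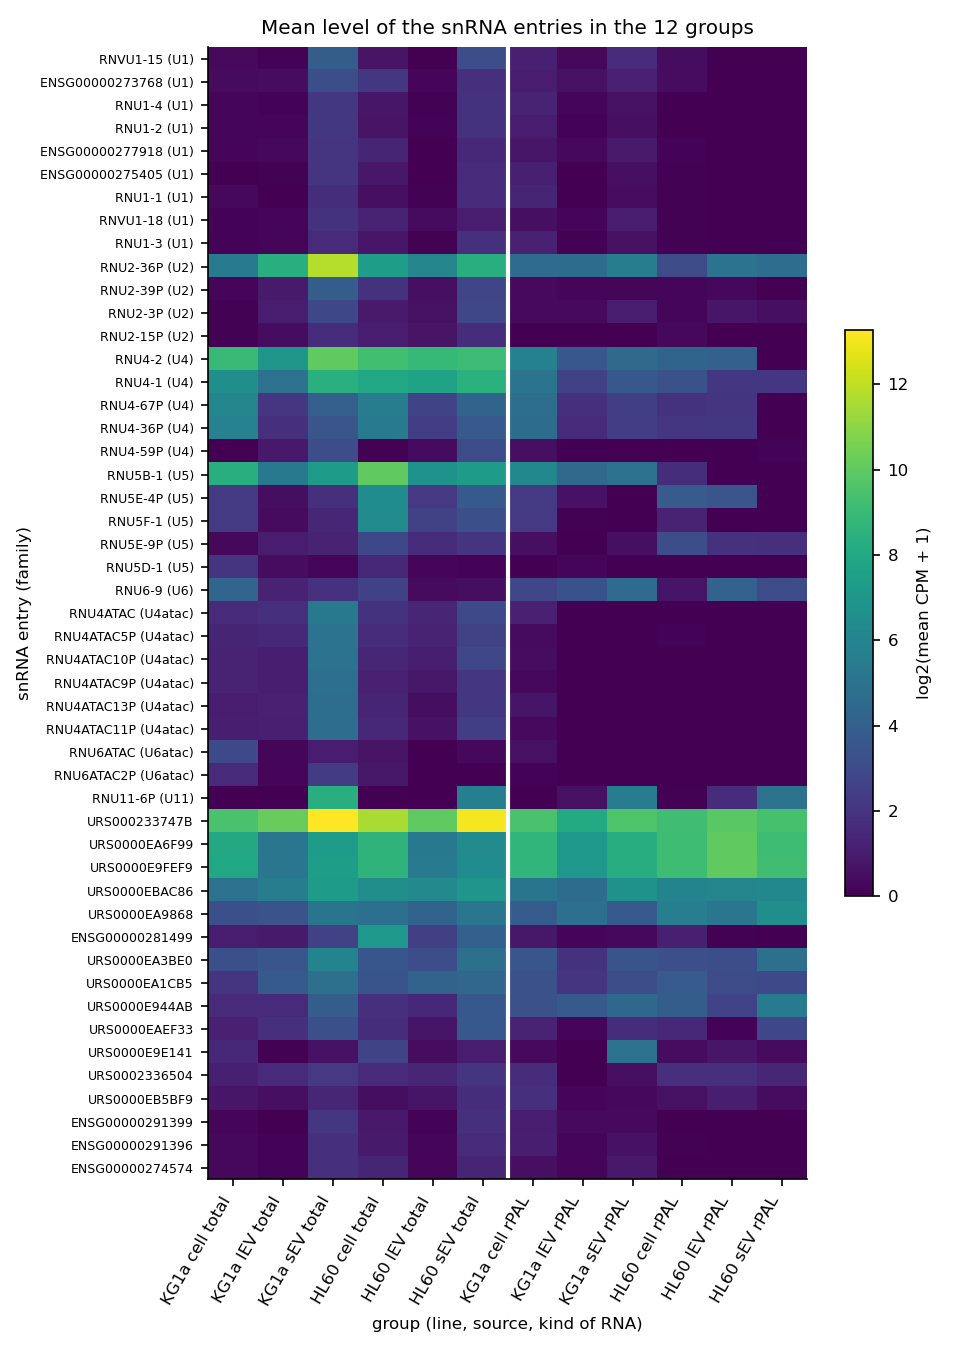
Heat map of log2(mean CPM + 1) for 49 of the 50 entries (rows, grouped by snRNA family) in the 12 groups (columns, total RNA left of the white line and rPAL RNA right). A Y-linked entry is not drawn. RNU4-2 and RNU5B-1 are darker in every rPAL column than in the total RNA of the same source, with RNU4-2 at 613 CPM in HL60 cell total RNA and 18.5 in rPAL, while URS0000EA6F99 stays bright in both and RNU5E-9P is at 6.23 CPM in HL60 cell total RNA and 7.93 in rPAL.

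The next question was which snRNA the vesicles carry relative to the cells, in total RNA. RNU5B-1, RNU5F-1 and RNU6-9 were lower in all 4 vesicle groups, and RNU11-6P, the U4atac entries and RNU2-36P were higher in KG1a sEV. U4 entries differed among themselves. These comparisons share the cell libraries. The U4atac entries, which may share reads, are counted singly in them. In KG1a sEV against cells 15 of 33 tested entries were higher, against 23% of all features, and 11 lower, against 22.1%, with medians of 0.76 and 0.22. Without TMM scaling the entries split 18 to 5, while the higher share of all called features went from 51.1% to 81.2%, and the median of all features moved by -1.12 between the scalings. In HL60 sEV 7 of 45 were higher, against 13.9%, and 10 lower, against 12.8%, with medians of 0.73 and 0.16. The HL60 sEV split was 8 to 9 without TMM, with 51.9% and 64.1% of all called features higher. In vesicle RNA, fewer copies of a snRNA and more of other RNA cannot be told apart.

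RNU5B-1 was lower in all 4 vesicle groups than in the cells. In HL60 it had 1653, 714 and 729.9 CPM in cells, 168, 98.5 and 57.5 in lEV (log2 fold change -2.23, SE 0.66, adjusted p = 0.0242) and 154, 76.0 and 244 in sEV (log2 fold change -2.99, SE 0.47, adjusted p = 0.00354), with every vesicle library below every cell library. In KG1a the fall was 3.17 in lEV (SE 0.48, adjusted p = 7.82e-05), with 56.4, 19.0 and 46.1 CPM. It was 2.33 in sEV (SE 0.48, adjusted p = 0.00251), where 135, 72.9 and 254 CPM overlapped the cells. The HL60 lEV call was lost without cell replicate 1 or 3 (adjusted p = 0.128 and 0.0535).

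RNU4-2 did not follow RNU5B-1. It was lower in KG1a lEV than in cells (log2 fold change -2.09, SE 0.55, adjusted p = 0.00451, overlapping through cell library 2) and was not called in KG1a sEV (-0.27, adjusted p = 0.759), HL60 lEV (0.72, adjusted p = 0.475) or HL60 sEV (-0.40, adjusted p = 0.481). Its close copy RNU4-67P was lower in both KG1a vesicles and in HL60 lEV, with 42.0, 42.2, 93.8 and 94.2 CPM in KG1a cells, 6.73, 1.21 and 1.94 in lEV (log2 fold change -4.46, SE 0.63, adjusted p = 4.01e-05) and 25.3, 6.99 and 12.7 in sEV (log2 fold change -3.29, SE 0.58, adjusted p = 0.0012). RNU6-9 was lower in all 4 vesicle groups, by 3.13 to 3.93 on the log2 scale, with no library overlapping the cells. RNU6ATAC fell from 8.04, 6.90, 6.502 and 4.62 CPM in KG1a cells to 0, 0.0928 and 0.408 in lEV (log2 fold change -5.43, SE 0.59, adjusted p = 5.18e-06) and 0.107, 1.63 and 1.39 in sEV (log2 fold change -3.71, SE 0.67, adjusted p = 0.0013).

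RNU11-6P, a copy of the U11 gene, rose in sEV of both lines. It had no count in the 4 KG1a cell total RNA libraries and 52.8, 910.0 and 1.74 CPM in KG1a sEV (adjusted p = 0.00688). By the sEV mean, which library 2 dominates, it was at least 5197-fold higher. In HL60 it had 1 cell library with a count, at 0.0699 CPM, and 123, 28.3 and 2.50 CPM in sEV (log2 fold change 10.35, SE 1.72, adjusted p = 0.00414). The sEV libraries of a line differed by over an order of magnitude, and the KG1a call was lost without sEV replicate 1 (adjusted p = 0.128) and the HL60 call without cell replicate 2 (adjusted p = 0.05004). It was at 0 in all 6 lEV total RNA libraries.

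The U4atac entries were higher in KG1a sEV than in cells, all 6 of them, by 2.99 to 3.44 on the log2 scale. RNU4ATAC had 1.88, 1.32, 2.64 and 2.77 CPM in cells and 46.2, 10.8 and 65.1 in sEV (log2 fold change 2.99, SE 0.53, adjusted p = 0.00124), with no overlap and the call kept in all 7 fits with 1 library left out. In HL60 sEV, at 7.09, 4.79 and 7.59 CPM against 2.996, 1.54 and 4.12 in cells, it was not called (log2 fold change 0.92, SE 0.48, adjusted p = 0.185), and RNU4ATAC10P was (log2 fold change 1.60, SE 0.50, adjusted p = 0.042), in 2 of 11 alternative fits. RNU2-36P rose from 22.4, 52.3, 78.6 and 27.5 CPM in KG1a cells to 148, 219 and 594 in lEV (log2 fold change 2.73, SE 0.48, adjusted p = 0.000251) and 504, 943 and 9063 in sEV (log2 fold change 4.95, SE 0.79, adjusted p = 0.000666). Library 3 was the highest in sEV, without which the log2 fold change was 3.24, and both calls held in all 7 fits with 1 library left out. In HL60 vesicles RNU2-36P was not called against cells (-0.60 in lEV, adjusted p = 0.421, and 0.72 in sEV, adjusted p = 0.194). RNU4-59P, which shares its first 29 bases with RNU4-2, had 0.143, 0.0671 and 0 CPM in HL60 cells and 11.3, 0.839 and 10.2 in sEV (log2 fold change 6.22, SE 1.13, adjusted p = 0.00572), a call lost without any 1 of the 3 cell libraries (adjusted p = 0.0566 to 0.0688).

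**Figure D4:**
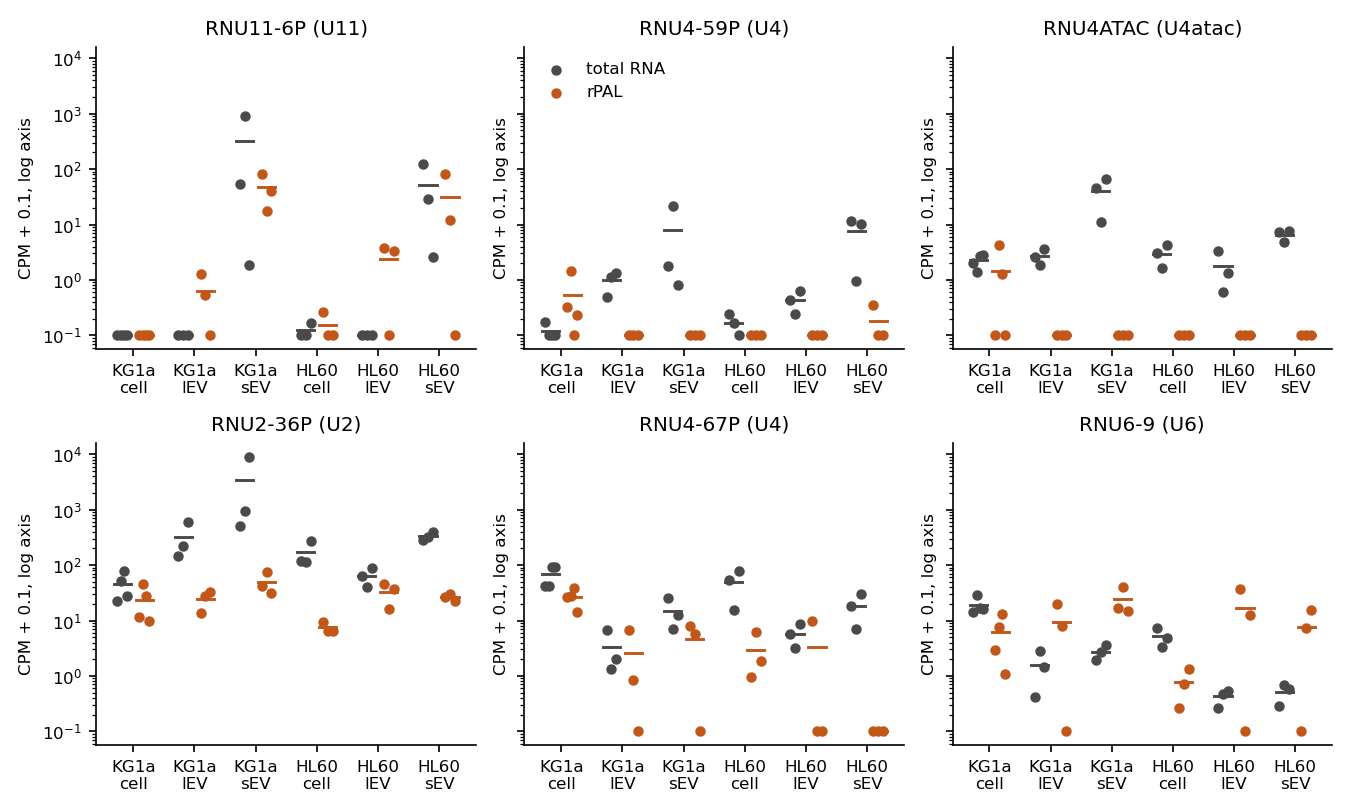
CPM + 0.1 (log axis) of 6 entries in every library, by source, with grey for total RNA, orange for rPAL RNA, points for libraries and bars for group means. RNU11-6P lies between 0 and 3.60 CPM in cells and lEV, RNU4ATAC reaches 65.1 CPM in KG1a sEV total RNA and is at 0 in vesicle rPAL, and RNU4-67P and RNU6-9 are lower in vesicle than in cell total RNA in KG1a.

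Between large vesicles and cells, 14 of 30 tested entries were lower in KG1a, against 28.5% of all features, and 2 higher, against 23.8% (medians -0.41 and -0.01). In HL60 15 of 36 were lower, against 15.2%, and 1 higher, against 12.1% (medians -1.03 and 0.16). Without TMM the HL60 entries split 0 to 18, with 44.3% and 10.9% of all called features higher and a shift of 0.77 between scalings. URS000233747B was not called in either (0.55, adjusted p = 0.339, and -0.98, adjusted p = 0.196), but it rose in KG1a sEV to 1580.3, 4216 and 23943 CPM (log2 fold change 2.48, SE 0.60, adjusted p = 0.00621) and in HL60 sEV to 7365, 5358 and 13107 (log2 fold change 1.17, SE 0.36, adjusted p = 0.0393), the HL60 call held in 5 of 11 alternative fits. URS0000EA6F99 went the other way, to 101, 61.1 and 86.3 CPM in HL60 sEV against 562, 225 and 417 in cells (log2 fold change -2.51, SE 0.37, adjusted p = 0.00275). The HL60 lEV count was 10 without cell replicate 1, and the HL60 sEV count 7, 10 and 8 without cell replicates 1, 2 and 3.

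Between the vesicle kinds, 7 of 30 tested entries were higher in sEV than in lEV of KG1a, against 3.41% of all features, and 0 were lower, against 1.9% (medians 1.64 and 0.13). These were RNU11-6P and the 6 U4atac entries, which may share reads, so the 7 may not be independent of each other. With the replicate number as a block, which pairs these libraries, 14 were called, all higher. In HL60 4 of 30 were higher, against 5.45%, and 0 lower, against 1.75% (medians 0.88 and 0.07): RNU11-6P, RNU2-39P, RNU2-3P and URS000233747B. Without TMM the counts were 19 and 9, all higher, with the higher share of all called features going from 64.2% to 94.5% and from 75.7% to 96.7%. No entry was called without any 1 of the lEV libraries, in either line, and 19 and 15 were called without sEV replicate 3. In HL60 1 was called without sEV replicate 1.

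The last question was how the lines differ in total RNA. U5 entries other than RNU5D-1 were higher in HL60 cells, RNU4-2 did not differ, and the U6 and U6atac genes were lower. Of 40 tested entries 21 were higher in HL60 than in KG1a cells, against 18.4% of all features, and 3 lower, against 21.5%, with medians of 1.11 and -0.01. Leaving out 1 library gave 22 to 25 calls.

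RNU5F-1 had 6.16, 2.38, 4.62 and 2.01 CPM in KG1a cells and 126, 50.4 and 76.2 in HL60 cells (log2 fold change 4.50, SE 0.43, adjusted p = 1.65e-07). RNU5E-4P had 4.28, 3.21, 5.84 and 1.85 and 112, 43.8 and 105 (log2 fold change 4.57, SE 0.39, adjusted p = 2.3e-08), and RNU5B-1 rose less (log2 fold change 1.69, SE 0.35, adjusted p = 0.00117). None of these overlapped between the lines. RNU5E-9P, a U5 copy, rose by 4.81 (SE 0.47, adjusted p = 1.32e-07). RNU5D-1 overlapped, at 2.68, 3.45, 3.96 and 2.35 in KG1a and 2.78, 1.21 and 1.68 in HL60 (log2 fold change -0.63, SE 0.31, adjusted p = 0.119).

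The largest difference was in ENSG00000281499, with 0.87, 1.89, 1.23 and 0.252 CPM in KG1a and 157, 105 and 141 in HL60 (log2 fold change 7.09, SE 0.44, adjusted p = 1.94e-10). RNU6ATAC had 8.04, 6.90, 6.502 and 4.62 and 0.927, 0.269 and 0.629 CPM (log2 fold change -3.35, SE 0.39, adjusted p = 1.23e-06) and RNU6-9 14.4, 29.1, 16.5 and 16.3 and 7.35, 3.22 and 4.82 (log2 fold change -1.80, SE 0.34, adjusted p = 0.000336), both lower in HL60 without overlap. RNU4-2 was not called (log2 fold change 0.33, SE 0.48, adjusted p = 0.635). URS000233747B rose (log2 fold change 2.24, SE 0.23, adjusted p = 3.69e-07), as did RNU2-36P (log2 fold change 2.03, SE 0.37, adjusted p = 0.000291).

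**Figure D5:**
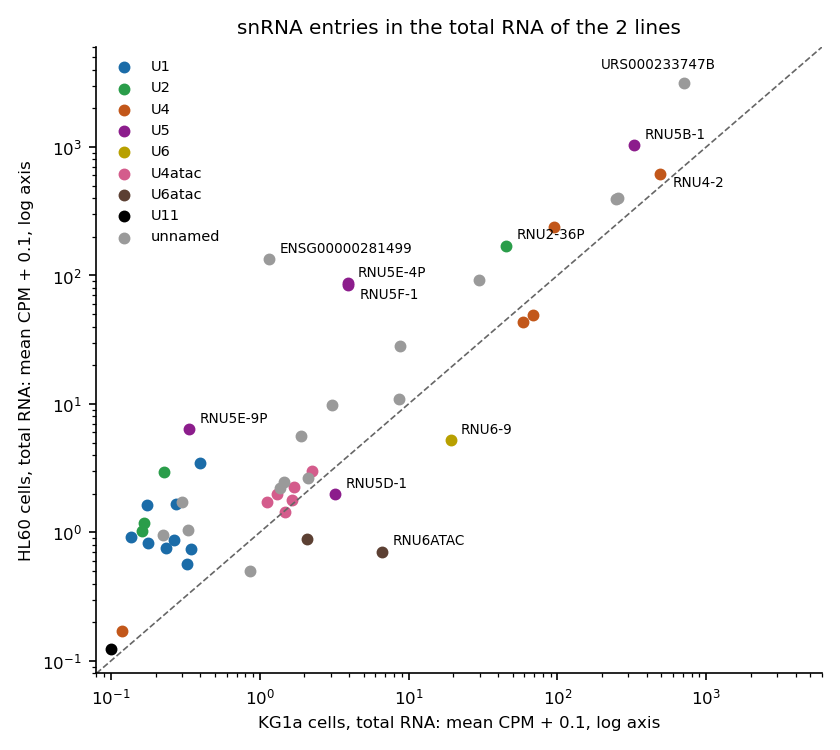
Mean CPM + 0.1 of 49 entries in KG1a cell total RNA (horizontal, log axis) and HL60 cell total RNA (vertical, log axis), coloured by family, with the dashed line at equal levels. RNU5F-1, RNU5E-4P and ENSG00000281499 lie above the line (84.4, 87.0 and 134 CPM in HL60 against 3.79, 3.79 and 1.06 in KG1a), RNU4-2 lies near it, and RNU6ATAC and RNU6-9 lie below.

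In lEV 7 of 27 tested entries were higher in HL60, against 7.04% of all features, and 0 lower, against 9.07% (medians 1.30 and 0.04). RNU5F-1 (log2 fold change 4.93, SE 0.64, adjusted p = 0.000405), RNU5E-4P (log2 fold change 4.01, SE 0.49, adjusted p = 0.000294), RNU4-1 (log2 fold change 3.86, SE 0.68, adjusted p = 0.00252), RNU4-2 (log2 fold change 3.18, SE 0.87, adjusted p = 0.0262) and RNU5B-1 (log2 fold change 2.58, SE 0.71, adjusted p = 0.0276) were among them. The RNU4-2 and RNU5B-1 calls held in 2 of 6 fits with 1 library left out, and the count was 4 without KG1a lEV replicate 2 or 3. Without TMM the split was 4 to 1, with 43.7% and 10.98% of all called features higher and a shift of 0.95 between scalings. In sEV none of 46 tested entries was called, against 0.606% higher and 0.769% lower of all features. In the edgeR fit 10 of them had an unadjusted p under 0.05, and DESeq2 called 3. Without TMM the higher share of all called features went from 44.1% to 20.2% in sEV.

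The rest of the pathway was followed through 4 lists, of Sm and Lsm protein mRNAs (15 genes, 6416 counts in all), particle-specific protein mRNAs (29 genes, 32185), assembly, capping and export mRNAs (21 genes, 6794) and scaRNA genes (56 genes, 120103, of which 31 had no count). Of the scaRNA genes, 5 of 6 tested were lower in rPAL than in total RNA of HL60 cells, against 18% of all features (median -3.55, beside 0.04), and 4 of 6 in KG1a cells, against 9.86% (median -4.01, beside -0.04). In vesicles 2 of 4 were lower in KG1a lEV, against 7.07%, 4 of 6 in HL60 lEV, against 18.9%, 3 of 6 in KG1a sEV, against 6.13%, and 4 of 6 in HL60 sEV, against 16.3%. None was higher in rPAL in any of the 6 sources. In cell total RNA 4 of 8 were higher in HL60 than in KG1a, against 18.4%, and 1 was lower, against 21.5%. SCARNA6 went from a mean of 524 to 0.662 CPM in HL60 cells (log2 fold change -9.79, SE 0.61, adjusted p = 4.72e-06).

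Of the particle-specific mRNAs 5 of 20 tested were higher and 2 lower in HL60 cell rPAL, beside 20.6% and 18% of all features, and 1 of 13 was higher in KG1a, beside 8.89%. The higher shares are near the background. In total RNA, 11 of 19 were higher and 1 lower in KG1a lEV against cells, beside 23.8% and 28.5% of all features, with 10 and 1 of 18 in sEV, beside 23% and 22.1%. HL60 did not show this rise: 3 of 20 were higher and 0 lower in lEV against cells, beside 12.1% and 15.2%. In HL60 sEV 1 of 23 was higher and 0 lower, beside 13.9% and 12.8%. Of the Sm and Lsm mRNAs 1 of 7 was higher in KG1a cell rPAL, beside 8.89% of all features, and 1 of 8 lower in HL60, beside 18%. Of the assembly mRNAs 0 of 5 were called in KG1a cells and 1 of 7 was higher in HL60 cells, beside 20.6%. Read counts on these mRNAs in a size-selected small RNA library are counts of fragments.

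Patterns like those of RNU4-2 and RNU5B-1 were sought among 280 features with a symbol and at least 5000 counts, by Pearson's r of log2(CPM + 1) over the 12 group means, which share libraries and depth with the entries themselves. Nearest to RNU4-2 were TMC5 (r = 0.978), SNHG25 (0.956), SNORD14E (0.953), SNHG5 (0.942) and SCARNA6 (0.898). Nearest to RNU5B-1 were SNHG25 (0.912), MAP1LC3B (0.908), TMC5 (0.880), EIF4A2 (0.861) and SNHG5 (0.854).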

How the data were processed

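The authors deposited raw counts of small RNA reads per feature for the 38 libraries. The submitters' processing notes name Bowtie2 and the build GRCh38 (hg38). The counting program, its rule for reads with several matches, its use of strand and the annotation release are not given in the sources used here, and without strand a gene and its antisense partner cannot be told apart. Every column matched a labelled sample.

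Symbols, coordinates and sequences came from GENCODE 29. Each comparison was fitted over all features of the table with edgeR 4.0.16 in R 4.3.3 (TMM scaling, filterByExpr, robust quasi-likelihood test) on the groups compared, with Benjamini-Hochberg adjustment over all features tested and calls at an adjusted p under 0.05. The fits were also run on simulated counts with a fixed spread between libraries and changes only in well-counted features. That run cannot speak for calls of entries at low or widely varying levels. CPM uses the library total, whereas fold changes follow TMM scaling. Depth, 5498168 to 14892937 counts in total RNA and 2380745 to 15532758 after rPAL, limits low entries.

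Alternatives were fits without TMM, without the filter, with all 12 groups, with the replicate number as a block, with DESeq2 1.42.0 and with each library left out. Same-numbered libraries deviated together in KG1a sEV and lEV total RNA (r 0.188 to 0.465 over 3 pairs), and in no other comparison did every pair exceed 0.1.

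Named were RNU4-2, RNU5B-1, the entries named as genes, the 6 with the most counts and, per comparison, up to 3 of the largest and 3 of the smallest fold changes among calls without overlap. A few others were picked with their values in view. The members and lists were chosen with earlier results of these data known. A Y-linked entry (1 of 50) is counted but not shown, and sequences of the U5 entries are not reported here.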

Additional observations from a re-analysis of the deposited data

Results flagged for a closer look

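Of 48 tests of a single library against the rest of its group of 4, 6 found a library set apart by more than Dixon's critical value. RNU4-59P was found in both groups. Chance alone sets apart about 1 in 20 groups. The gap as a share of the group's range was 0.859 for RNU6-9 and 1 for RNU4-59P in KG1a cell total RNA, and 0.8293 for RNU4ATAC5P, 0.893 for RNVU1-15, 0.834 for RNU4-59P and 1 for RNU6ATAC in KG1a cell rPAL RNA. RNU4-59P in total RNA and RNU6ATAC in rPAL RNA had counts in 1 library of the 4, which fixes the gap at 1.

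The cell rPAL effect differed between the lines for 10 of 44 entries by a test of the difference itself, HL60 minus KG1a on the log2 scale (edgeR, adjusted over all features). The differences were -5.69 for RNU5F-1, -6.56 for RNU5B-1, -3.39 for RNU4-1, -8.45 for RNU1-2, -8.87 for RNU1-4, -3.65 for RNU2-36P, -8.30 for a U1 entry named only by Rfam, -6.28 for ENSG00000281499, -9.07 for an Ensembl entry without a name and -2.47 for URS000233747B. The U1 differences rest on low levels, since the 10 U1 entries together summed to 1.43 CPM in KG1a and 10.6 CPM in HL60 cell total RNA.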

How the results depend on the processing

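Of the counts of calls and shares under alternatives, 151 stayed within 1.5 times or 1 SD of the reported value and 90 moved beyond it. For single named entries, 2892 alternative values kept the call or the lack of one, 418 lost the call and 77 gained one. A change of direction was counted only where either fit gave a call, so uncalled entries that changed sign may be among the 2892. Counted in this way, 1 reversed: RNU5E-4P in HL60 lEV rPAL against total RNA was -8.69 without rPAL replicate 1 (SE 2.01, adjusted p = 0.0199) and 0.06 with it. Its highest value with a library left out was 0.74, without rPAL replicate 2. Except where a setting changes the genes or samples tested, the cause was not tested.

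Without TMM the number of entries called was 4 in KG1a cell rPAL against total RNA, 19 in KG1a and 9 in HL60 sEV against lEV, and 6 for the difference between lines. Without the filter it was 0 in KG1a lEV and KG1a sEV rPAL, 4 in HL60 sEV rPAL, 23 in KG1a and 13 in HL60 sEV against lEV, 3 between lines in sEV and 5 for the difference between lines. With all 12 groups in 1 fit it was 3 in KG1a cell rPAL, 6 and 5 in KG1a lEV and sEV against cells, 0 and 2 in HL60 lEV and sEV against cells, 1 in sEV against lEV of either line, 4 and 1 between lines in cells and lEV, and 0 for the difference between lines. DESeq2 called 12 in KG1a cell rPAL, 12 in KG1a lEV rPAL, 17 and 8 in KG1a and HL60 sEV against lEV, 3 between lines in sEV and 16 for the difference between lines.

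With the replicate block, 4 were called in KG1a cell rPAL, 0 in KG1a lEV rPAL, 3 in HL60 lEV rPAL, 5 in HL60 sEV rPAL, 14 in KG1a sEV against lEV and 4 for the difference between lines. Only the KG1a sEV and lEV libraries are paired by the check of deviations, and elsewhere the numbers are shared in name. In HL60 sEV against lEV and in sEV between lines every library correlated best with its own number, a hint from the data and not the design.

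Leaving out each library in turn, the number called ranged over 3 to 13 in KG1a cell, 19 to 31 in HL60 cell, 0 to 10 in KG1a lEV, 1 to 15 in HL60 lEV, 0 to 10 in KG1a sEV and 2 to 6 in HL60 sEV rPAL against total RNA. It ranged over 15 to 21 and 22 to 36 in KG1a lEV and sEV against cells, 0 to 19 in KG1a sEV against lEV, 10 to 22 and 7 to 22 in HL60 lEV and sEV against cells, and 0 to 15 in HL60 sEV against lEV. Between lines it was 22 to 25 in cells, 4 to 9 in lEV and 0 in sEV, and 1 to 17 for the difference between lines. Without the KG1a cell rPAL libraries 2 and 3, an alternative chosen after seeing the data, it was 18 in KG1a cells and 11 for the difference.

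Taken of the library without rRNA counts, the snRNA share of rPAL RNA was 0.123% in KG1a lEV, 0.480% in KG1a sEV, 0.839% in HL60 lEV and 0.443% in HL60 sEV, where rRNA takes much of the library. In total RNA the same share was 0.226%, 2.50%, 0.224% and 1.33%. Without the pair URS0000EA6F99 and URS0000E9FEF9, HL60 lEV had 0.216% in total and 0.268% in rPAL RNA.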
